A study of Homo sapiens with 40 samples.

Results

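The genes described here are 10 transcription factor genes whose abnormal activity defines subgroups of T-cell acute lymphoblastic leukaemia (T-ALL): TAL1, TAL2, LYL1, LMO1, LMO2, LMO3, TLX1, TLX3, NKX2-1 and MYB. They were taken by symbol from 3 tables of raw RNA-seq counts, and all 10 of the 10 symbols were found among 62754 genes. The 40 libraries, 4 per group, came from 10 groups. Jurkat cells had been transfected with QKI siRNA or with NTC siRNA, the control, to deplete QKI, an RNA-binding protein that regulates splicing. Cells labelled HPB-ALL had been transduced with viral particles to express QKI shRNA or NTC shRNA. The other 6 groups were untreated lines: ALL-SIL, DND-41, HPB-ALL, KARPAS-45, LOUCY and TALL-1. All are human cell lines labelled as T lymphocytes and studied as T-ALL models, and each is 1 established line, so a group of 4 libraries samples cultures and not patients. Libraries of a group are numbered 1 to 4 by their labels, but 2 of the 4 LOUCY columns in the table both carry the number 1, and these are given first, without a number. The Jurkat control columns are headed shNTC and were taken as the NTC siRNA samples, since Jurkat has no other control group in the labels. HPB-ALL and KARPAS-45 cells, the transduced cells labelled HPB-ALL included, were grown in 20% fetal calf serum and the other lines in 10%. The study asked what loss of QKI does to splicing in T-ALL, and the question here is how the driver factors themselves stand in these cells.

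TAL1, TAL2 and LYL1 are basic helix-loop-helix proteins that pair with E proteins (TCF3, TCF12, TCF4) and bind E-box DNA. LMO1, LMO2 and LMO3 are LIM-only proteins that bind no DNA themselves and bridge TAL1 or LYL1 to LDB1, GATA and RUNX1 in one complex. TLX1, TLX3 and NKX2-1 are homeobox proteins of the NKL class, and MYB is a factor of blood progenitors that recruits the coactivators CREBBP and EP300. In T-ALL these genes are often switched on by translocations, deletions or new enhancers. The factor that is active goes with a subgroup of the disease, and mature T cells keep most of these genes silent.

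Total counts assigned to genes per library were 68379879 to 115723891 in Jurkat QKI siRNA and 103753086 to 134209287 in Jurkat NTC siRNA. They were 119783229 to 134916505 with QKI shRNA and 81048583 to 127061690 with NTC shRNA in the libraries labelled HPB-ALL, and 44093984 to 83952970 in the untreated lines. Levels are given as counts-per-million (CPM) scaled by TMM within each table. The tables were normalized separately and their library preparations differed, so levels set side by side across tables were not tested. At these depths 3 counts, the limit that a count of 0 allows, correspond to 0.0222 to 0.0653 CPM per library, for counting error only. The p-values measure the spread between the 4 libraries of a group, which may be partly technical. HPB-ALL library 4 stood farthest from its group, with a median Pearson r of 0.983 of log2 CPM over genes, against 0.986 to 0.999 for all the others, and the differences between lines that involve it are given with and without it. In bulk samples fewer cells of a type and less RNA per cell cannot be told apart.

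QKI, the targeted gene, was measured at 24.9, 17.5, 18.2 and 25.3 CPM in Jurkat QKI siRNA libraries 1 to 4, against 148, 176, 137 and 133 CPM in Jurkat NTC siRNA libraries. In the libraries labelled HPB-ALL it was 54.6, 54.9, 55.9 and 57.7 CPM with QKI shRNA, against 105, 103, 101 and 107 CPM with NTC shRNA. QKI was lower in each depleted library than in any control library of its table, with log2 changes of -2.79 (SE 0.17, edgeR adjusted p = 0.000129) in Jurkat and -0.90 (SE 0.03, adjusted p = 1.1e-07) with the shRNA. Among the untreated lines QKI averaged 162 CPM in TALL-1, 137 in HPB-ALL, 129.6 in ALL-SIL, 88.0 in DND-41 and 6.71 in KARPAS-45, and LOUCY had 0 counts in all 4 libraries.

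The label HPB-ALL of the transduced libraries went against their contents. Of 12 T-cell markers (CD3D, CD3E, CD3G, CD247, CD2, CD5, CD7, TRAC, TRBC1, TRBC2, LCK and ZAP70), 0 of 12 averaged 1 CPM in either arm, and their summed level was 1.22 to 1.4 CPM with QKI shRNA and 1.30 to 1.49 CPM with NTC shRNA. The same sum was 6101 to 8832 CPM in untreated HPB-ALL, where 11 of 12 markers reached 1 CPM. Of 12 myeloid markers 7 reached 1 CPM with QKI shRNA and 8 with NTC shRNA, and their sum was 2979.6 to 3112 CPM with QKI shRNA, 3415 to 3575 CPM with NTC shRNA and 15.1 to 34.7 CPM in untreated HPB-ALL. ELANE, a neutrophil granule protease, averaged 1714 CPM with QKI shRNA and 1649.9 CPM with NTC shRNA, while MPO (0.107 and 0.0864 CPM) and CD14 (0.0855 and 0.147 CPM) were near 0. The name used below is therefore the libraries labelled HPB-ALL. In Jurkat all 12 T-cell markers reached 1 CPM in both arms, and in each untreated line 10 or 11 did.

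Of the 10 genes, 5 exceeded 100 CPM in some libraries and lay at or near 0 in other groups, namely TAL1, LYL1, LMO2, TLX1 and TLX3. The DNA before the start sites of 4 of them is shown for that reason, and LMO2 had no RefSeq window. The sequences are the 250 bases before the RefSeq start (GRCh38.p14), 5′ to 3′ on the gene's strand, and capitals mark the GATA motif, GATA or TATC, the core that GATA factors of the TAL1 complex recognise. For TAL1 (minus strand) the farther upstream of 2 RefSeq starts is shown. For LYL1 and TLX1 the windows lie wholly inside the GENCODE gene spans given below, so they are upstream of the RefSeq start only. The windows of TAL1 and TLX3 lie upstream of those spans.
TAL1, chr1:47232336-47232585, minus strand: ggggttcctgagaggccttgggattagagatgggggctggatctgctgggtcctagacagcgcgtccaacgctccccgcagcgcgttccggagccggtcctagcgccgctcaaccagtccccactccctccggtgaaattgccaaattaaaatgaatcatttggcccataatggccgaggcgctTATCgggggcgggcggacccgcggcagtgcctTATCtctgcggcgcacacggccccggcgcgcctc
LYL1, chr19:13102859-13103108, minus strand: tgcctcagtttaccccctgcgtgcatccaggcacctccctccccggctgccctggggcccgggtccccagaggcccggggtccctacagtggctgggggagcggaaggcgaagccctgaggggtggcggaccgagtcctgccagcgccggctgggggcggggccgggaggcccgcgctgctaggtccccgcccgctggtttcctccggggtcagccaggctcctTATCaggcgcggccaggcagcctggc
TLX1, chr10:101131050-101131299, plus strand: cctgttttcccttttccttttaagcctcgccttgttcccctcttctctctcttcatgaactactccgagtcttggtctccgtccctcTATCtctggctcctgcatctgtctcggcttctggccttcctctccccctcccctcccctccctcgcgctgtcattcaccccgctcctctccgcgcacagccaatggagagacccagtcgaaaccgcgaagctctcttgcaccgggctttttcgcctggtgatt
TLX3, chr5:171308998-171309247, plus strand: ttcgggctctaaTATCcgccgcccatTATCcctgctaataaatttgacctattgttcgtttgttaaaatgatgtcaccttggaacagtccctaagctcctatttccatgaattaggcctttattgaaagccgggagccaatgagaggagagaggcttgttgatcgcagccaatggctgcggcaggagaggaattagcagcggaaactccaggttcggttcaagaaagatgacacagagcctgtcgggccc
Searching both strands, the GATA motif occurred 2 times before TAL1, 1 time before LYL1, 1 time before TLX1 and 2 times before TLX3. A GATA motif was present in 45.6% of all 35116 RefSeq windows of this length. The E-box CANNTG occurred 1 time each before TAL1 and TLX1 and 0 times before LYL1 and TLX3, against a share of 61.8% of all windows with at least 1. The MYB motif, AACNG or CNGTT, occurred 0 times before TAL1, 1 time before LYL1 and 2 times each before TLX1 and TLX3, against 70.6% of all windows with at least 1. In these 4 windows no match of one motif overlapped a match of another. GC content was 64.8% for TAL1, 75.2% for LYL1, 58.0% for TLX1 and 48.8% for TLX3. RefSeq windows matched 9 of the 10 symbols.

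The groups fell into a few combinations of these factors. In both Jurkat arms 4 genes averaged 1 CPM or more: MYB, TAL1, LMO1 and NKX2-1. In both arms labelled HPB-ALL, and also in untreated LOUCY, these were MYB, LYL1, LMO2 and LMO1. Untreated HPB-ALL and DND-41 had MYB, TLX3 and LYL1, and ALL-SIL had TLX1, MYB and LYL1. In KARPAS-45 and TALL-1 only MYB of the 10 reached 1 CPM. MYB reached it in all 10 groups, LYL1 in 6, LMO1 in 5, LMO2 in 3, TAL1, TLX3 and NKX2-1 in 2 each, TLX1 in 1, and TAL2 and LMO3 in 0.

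**Figure D1:**
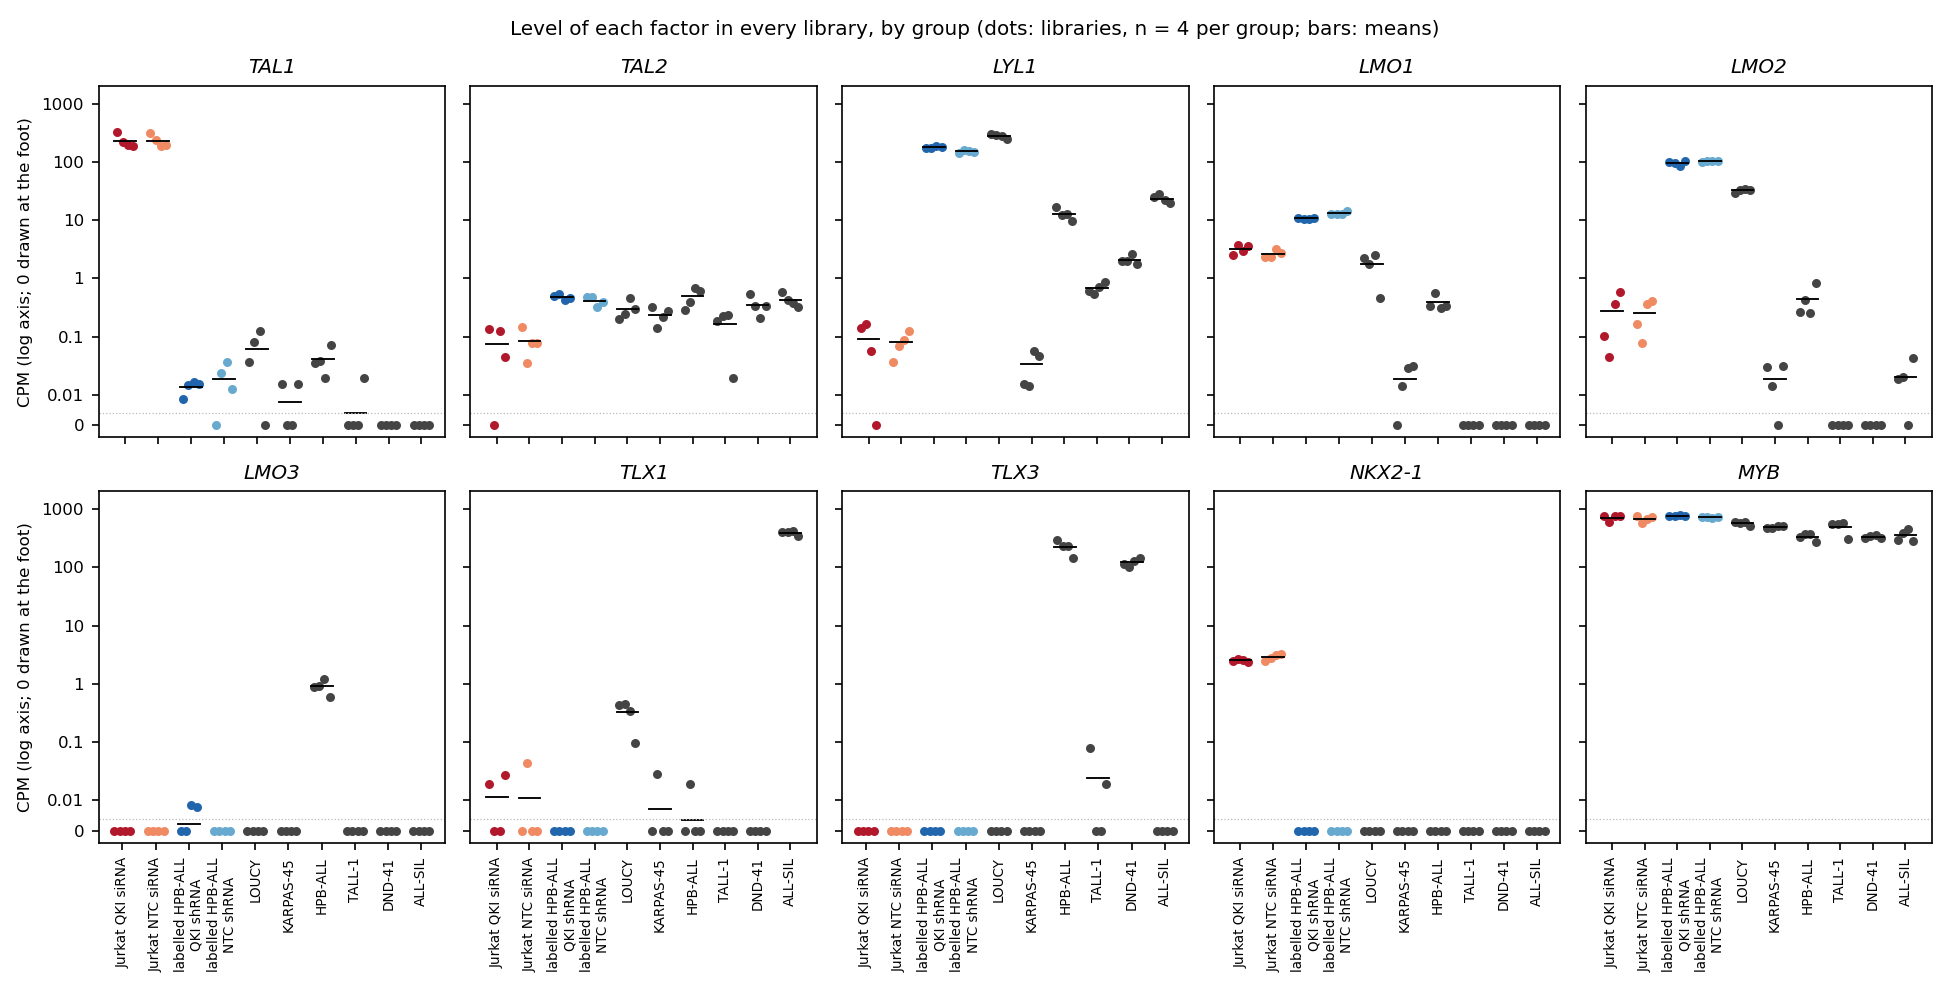
Level of each factor in CPM (log axis, with 0 drawn at the foot) in every library, by group, with dots for libraries, 4 per group, and bars for means. TAL1 and NKX2-1 stand above 1 CPM in Jurkat alone, TLX1 in ALL-SIL alone and TLX3 in HPB-ALL and DND-41 alone, while MYB lies between 269 and 788 CPM in every library.

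To compare the genes with each other, levels were divided by exon length. This length joins all annotated exons of a gene, 5493 bases for MYB and 1493 for TLX3, and may differ from that of the transcript expressed. In Jurkat NTC siRNA libraries MYB had 124 ± 12.8 and TAL1 40.5 ± 10.1 CPM per kilobase (SD, n = 4), while LMO1 had 1.55 ± 0.252 and NKX2-1 0.910 ± 0.107. In ALL-SIL TLX1 had 114 ± 8.95 CPM per kilobase against 65.0 ± 14.5 for MYB. TLX3 had 150.4 ± 39.3 CPM per kilobase in HPB-ALL and 81.4 ± 11.3 in DND-41, while MYB had 61.3 ± 9.01 in HPB-ALL and 61.2 ± 3.59 in DND-41. By its mean the homeobox factor stood above MYB per length in those 3 lines. For TLX3 that order came from the division. In CPM MYB was above TLX3, at 337 against 225 in HPB-ALL and 336 against 122 in DND-41. TLX1 was above MYB also in CPM, at 392 against 357 in ALL-SIL. In LOUCY MYB had 103 ± 6.96, LYL1 89.4 ± 8.19, LMO2 10.4 ± 0.783 and LMO1 1.04 ± 0.546 CPM per kilobase.

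**Figure D2:**
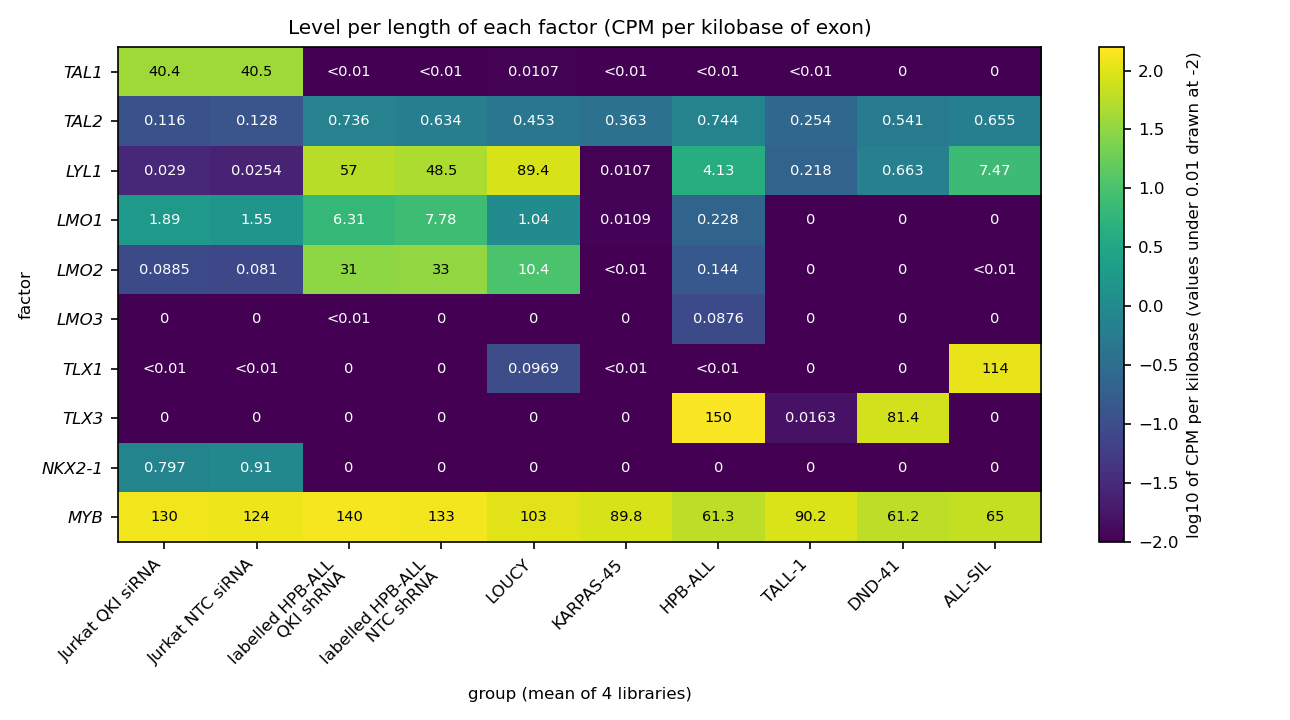
Mean level per length, in CPM per kilobase of exon, of each factor (rows) in each group (columns, mean of 4 libraries), with the value printed in each cell and colour on a log10 scale. MYB fills its whole row, whereas TAL1, TLX1 and TLX3 each fill 1 or 2 lines and read 0 or near 0 elsewhere.

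TAL1 (chr1:47216290-47232220, minus strand, GRCh38, GENCODE 29) was high only in Jurkat. It had 322, 220.0, 192 and 186 CPM in QKI siRNA libraries 1 to 4, against 311, 233, 188 and 190.5 CPM in NTC siRNA libraries 1 to 4. Outside Jurkat no library had more than 7 counts, and DND-41 and ALL-SIL had 0 in all 8 libraries. STIL, the next protein-coding gene upstream and the partner of TAL1 in a recurrent deletion of T-ALL, was present in every group, at 166 CPM in Jurkat QKI siRNA and 164 CPM in NTC siRNA libraries. PDZK1IP1, the neighbour on the other side, averaged 0 CPM in Jurkat QKI siRNA and 0.0252 CPM in NTC siRNA libraries. AL135960.1, an antisense gene inside TAL1, had 1.38 ± 0.365 CPM in QKI siRNA and 1.42 ± 0.355 CPM in NTC siRNA libraries of Jurkat (SD, n = 4 each) and 0 counts in the other 8 groups. The sources used here do not give whether counting used the strand, so reads of overlapping antisense genes may have been shared.

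TAL2 (chr9:105662457-105663112, plus strand), a close relative of TAL1, stayed below 1 CPM in all 40 libraries. Its highest single library was HPB-ALL 3 at 0.671 CPM. TAL2 averaged 0.488 CPM in HPB-ALL, 0.430 in ALL-SIL, 0.355 in DND-41, 0.297 in LOUCY, 0.238 in KARPAS-45 and 0.166 in TALL-1, and the libraries of neighbouring lines in this order overlapped. In Jurkat it averaged 0.0760 CPM with QKI siRNA and 0.0839 CPM with NTC siRNA.

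LYL1 (chr19:13099033-13103161, minus strand), the paralog of TAL1 associated with immature T-ALL, was graded over the lines. It had 302, 291, 278 and 243 CPM in LOUCY, 24.4, 27.5, 21.9 and 19.5 in ALL-SIL, 17.0, 12.1, 12.7 and 9.75 in HPB-ALL, 1.98, 1.94, 2.61 and 1.73 in DND-41 and 0.608, 0.546, 0.708 and 0.854 in TALL-1. KARPAS-45 had 1, 1, 4 and 3 counts. No 2 neighbouring lines from LOUCY down to TALL-1 overlapped. By edgeR's quasi-likelihood test the log2 difference was 3.58 (SE 0.17, adjusted p = 2.41e-15) for LOUCY over ALL-SIL, where 67.1% of 20348 genes differed at an adjusted p under 0.05. It was 0.85 (SE 0.16, adjusted p = 4.87e-05) for ALL-SIL over HPB-ALL (62.5% of genes), 2.64 (SE 0.17, adjusted p = 1.95e-12) for HPB-ALL over DND-41 (55.8%) and 1.61 (SE 0.20, adjusted p = 1.56e-07) for DND-41 over TALL-1 (53.6%). Without HPB-ALL library 4 the difference of ALL-SIL over HPB-ALL was 0.74 and that of HPB-ALL over DND-41 was 2.75, both still called. With most genes differing in each of these 4 comparisons, the calls do not set LYL1 apart. NFIX, which ends 236 bases from LYL1, did not follow it, with 28.4 CPM in LOUCY and 50.3 CPM in ALL-SIL.

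LMO2 (chr11:33858576-33892289, minus strand) had 28.8, 32.4, 34.5 and 33 CPM in LOUCY and 0.267, 0.430, 0.256 and 0.840 CPM in HPB-ALL, and had 0 counts in all libraries of TALL-1 and DND-41. The log2 difference of LOUCY over HPB-ALL was 6.15 (SE 0.34, adjusted p = 6.68e-12), in a comparison in which 66.8% of genes differed, and was 6.65 without HPB-ALL library 4. Against the limit of 3 counts per library, LOUCY was at least 494-fold higher than TALL-1 and at least 476-fold higher than DND-41. In the libraries labelled HPB-ALL, LMO2 averaged 96.4 CPM with QKI shRNA and 103 CPM with NTC shRNA.

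LMO1 (chr11:8224304-8268716, minus strand) was present with TAL1 in Jurkat and with LMO2 in LOUCY. It had 2.55, 3.69, 2.91 and 3.64 CPM in Jurkat QKI siRNA libraries, against 2.30, 2.29, 3.18 and 2.73 CPM in NTC siRNA libraries. LOUCY had 2.26, 1.78, 2.56 and 0.467 CPM, with 1 library far below the other 3, and HPB-ALL had 0.339, 0.561, 0.316 and 0.329 CPM. The log2 difference of LOUCY over HPB-ALL was 2.19 (SE 0.44, adjusted p = 0.000374), although the lowest LOUCY library, number 4, lay inside the HPB-ALL range, and without that library it was 2.50. Without HPB-ALL library 4 it was 2.12. TALL-1, DND-41 and ALL-SIL had 0 counts. RIC3, a chaperone gene of acetylcholine receptors and the nearest protein-coding gene downstream, had its counts in largely the same groups, with 2.71 CPM with QKI shRNA and 5.50 CPM with NTC shRNA in the libraries labelled HPB-ALL. It averaged 0.543 CPM in Jurkat QKI siRNA, 0.446 in Jurkat NTC siRNA, 0.835 in LOUCY, 0.337 in HPB-ALL and 0 in TALL-1, DND-41 and ALL-SIL.

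LMO3 (chr12:16548373-16610594, minus strand) was detected beyond 1 count per library only in untreated HPB-ALL, at 0.873, 0.917, 1.22 and 0.584 CPM. The other 9 groups had 0 counts in each library, except for 1 count in each of QKI shRNA libraries 3 and 4 labelled HPB-ALL. In the libraries at 0 counts its level was at or under the limit of 3 counts. LMO3 overlaps MGST1, a glutathione transferase gene on the opposite strand, which averaged 0.00493 CPM in untreated HPB-ALL.

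TLX1 (chr10:101130505-101137789, plus strand) had 402, 406, 412 and 346 CPM in ALL-SIL and 0.434, 0.450, 0.344 and 0.0974 CPM in LOUCY. The log2 difference of ALL-SIL over LOUCY was 10.19 (SE 0.30, adjusted p = 3.91e-16), and ALL-SIL was at least 5946-fold higher than TALL-1 and at least 5721-fold higher than DND-41, both at 0 counts. TLX1NB, a noncoding gene that overlaps the start of TLX1 on the opposite strand, had 25.0, 27.1, 29.5 and 18.0 CPM in ALL-SIL and at most 1 count in any other library. LBX1, the next protein-coding gene, had 0 counts in ALL-SIL.

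TLX3 (chr5:171309284-171312134, plus strand) had 289, 232, 231 and 146 CPM in HPB-ALL and 115, 102, 127 and 142 CPM in DND-41. The libraries of the 2 lines did not overlap, and the log2 difference of HPB-ALL over DND-41 was 0.89 (SE 0.21, adjusted p = 0.00229), and 1.04 (adjusted p = 0.000116) without HPB-ALL library 4, the lowest. Against LOUCY, KARPAS-45 and ALL-SIL, all at 0 counts, HPB-ALL was at least 2240.4-fold higher and DND-41 at least 1565-fold higher. AC091980.2, an antisense gene across the start of TLX3, had 64.1, 89.6, 70.1 and 76.0 CPM in HPB-ALL and 40.2, 40.5, 37.1 and 46.3 CPM in DND-41, and 0 counts in the other 8 groups. RANBP17, the neighbour 9.27 kilobases upstream, averaged 0.00493 CPM in HPB-ALL and 0.0146 CPM in DND-41. NPM1, a nucleolar protein gene on the other side, averaged 924 CPM in HPB-ALL, 903 in DND-41 and 1056 in TALL-1.

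NKX2-1 (chr14:36516392-36521149, minus strand), a factor of lung and thyroid that can be activated in T-ALL, had 0 counts in all 32 libraries outside Jurkat. In Jurkat it had 2.43, 2.71, 2.58 and 2.38 CPM in QKI siRNA libraries, against 2.49, 2.73, 3.06 and 3.24 CPM in NTC siRNA libraries. Overlapping genes on the opposite strand were also counted in Jurkat, with 1.88 ± 0.331 CPM for AL132857.2 in QKI siRNA and 1.67 ± 0.170 CPM in NTC siRNA libraries. NKX2-1-AS1 had 0.232 ± 0.0554 CPM in QKI siRNA and 0.316 ± 0.118 CPM in NTC siRNA libraries (SD, n = 4 each). The neighbouring gene NKX2-8 had 0 counts in Jurkat, and SFTA3 averaged 0.129 CPM with QKI siRNA and 0.0972 CPM with NTC siRNA.

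MYB (chr6:135181315-135219173, plus strand) was high in every group. Among the untreated lines it had 590.0, 565, 598 and 513 CPM in LOUCY, 553, 552, 568 and 309.8 in TALL-1 and 481, 477, 510.1 and 505 in KARPAS-45. It had 299, 389, 454 and 285 CPM in ALL-SIL, 331, 375, 372 and 269 in HPB-ALL and 321, 347, 359 and 319 in DND-41. Of the 5 steps in the order of means, 1 passed the test, KARPAS-45 over ALL-SIL at a log2 difference of 0.47 (SE 0.16, adjusted p = 0.0119), where 74.3% of genes differed. That call was lost without ALL-SIL library 1 (adjusted p = 0.0503) or 4 (adjusted p = 0.0558). LOUCY over TALL-1 differed by 0.19 (SE 0.16, adjusted p = 0.302) with 66.7% of genes called, and by 0.02 without TALL-1 library 4, the lowest of that line, and TALL-1 over KARPAS-45 by 0.01 (SE 0.16, adjusted p = 1) with 72.2% called. The steps from ALL-SIL to HPB-ALL and from HPB-ALL to DND-41 had log2 differences of 0.08 (SE 0.16) and 0.00 (SE 0.16), and without HPB-ALL library 4 of -0.01 and 0.09, so no order of these 3 lines was detectable. MYB-AS1, antisense inside MYB, stayed under 0.1 CPM by mean in all 10 groups. Over the 6 lines together, 8 of the 8 factors that passed the filter on low counts were called by the F test, as were 98.0% of all genes. Their adjusted p ranged from 1.21e-23 for LYL1 to 0.0165 for TAL2, and TAL1 and NKX2-1 did not pass the filter in the lines.

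The partners of these factors were present more evenly. Of 13 genes of the TAL1 complex, 10 to 12 averaged 1 CPM or more in each group, with a summed level of 2031 to 2568 CPM in Jurkat QKI siRNA, 1981 to 2464 CPM in Jurkat NTC siRNA and 1642 to 2105 CPM in LOUCY. GATA2, a progenitor factor, averaged 43.2 CPM in LOUCY and at most 0.00427 CPM in the other 5 untreated lines. Among the untreated lines TCF4 was highest in KARPAS-45 (85.0 CPM) and had 0 counts in ALL-SIL, whereas TCF3 was lowest in DND-41 (229 CPM). GATA3 averaged 256 CPM in LOUCY, and 1.79 CPM with QKI shRNA and 1.43 CPM with NTC shRNA in the libraries labelled HPB-ALL. Of the ID proteins, which sequester E proteins, ID2 was highest in LOUCY (53.3 CPM), ID1 in KARPAS-45 (60.0 CPM) and ID3 in ALL-SIL (57.3 CPM) among the lines.

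Of 10 genes known from other work as activated by TAL1 in T-ALL, MYB among them, all 10 reached 1 CPM in both Jurkat arms and in LOUCY, against 7 to 9 in the other groups. ALDH1A2, a retinal dehydrogenase, averaged 1168 ± 117 CPM in QKI siRNA and 1166 ± 141 CPM in NTC siRNA libraries of Jurkat (SD, n = 4 each). In LOUCY it averaged 17.8 CPM, and in the other 5 untreated lines at most 4.36 CPM. TSPAN7, a membrane protein of the tetraspanin family, averaged 196 CPM in Jurkat QKI siRNA, 194 in Jurkat NTC siRNA and 212 in LOUCY, where TAL1 had at most 7 counts.

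Progenitor genes linked to LMO2 and LYL1 were concentrated in LOUCY among the untreated lines, where 7 of 9 reached 1 CPM and the sum was 997 to 1315 CPM. GFI1B, a repressor of erythroid and megakaryocyte cells, averaged 485 CPM in LOUCY and at most 0.0813 CPM in the other 5. HHEX averaged 175 CPM there, ERG 151 CPM and MEF2C 139 CPM, all 3 being factors of early blood cells. KIT was among the listed genes below 1 CPM in LOUCY, at 0.110 CPM there and 8.68 CPM in KARPAS-45. Among markers of erythroid cells and megakaryocytes LOUCY had 93.9 CPM of ITGA2B, a platelet integrin, while HBG1 and PF4 had 0 counts there, and their part in these levels was not tested.

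The thymocyte genes driven by E proteins followed another order. RAG1, a recombinase subunit, averaged 750.3 CPM in DND-41, 2.64 in LOUCY and 0.0907 in TALL-1. PTCRA, which encodes the pre-T-cell receptor alpha chain, was highest in TALL-1 (104 CPM) and was 0.0864 CPM in LOUCY. Among other drivers of T-ALL, HOXA9, HOXA10 and HHEX were highest in LOUCY, and HOXA9 had 0 counts in the other 5 untreated lines. Of the MYB target genes, MYC averaged 0.0143 CPM in LOUCY and 466 CPM in KARPAS-45, while BCL2 averaged 391 CPM in DND-41, 389 in LOUCY and 63.2 in HPB-ALL.

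For the 8 factors that passed the filter in the lines, the protein-coding genes with the most similar pattern were ranked by Pearson r of log2 CPM over the 24 untreated libraries, which come from 6 lines, 4 libraries each, in 1 table with 1 scaling. LYL1 was most like TSPAN32 (r = 0.979), SH3BP1 (r = 0.969) and SLC44A1 (r = 0.963). LMO2 was most like ZNF630 (r = 0.991), CD22 (r = 0.990) and CLNK (r = 0.989). LMO1 was most like CPB2 (r = 0.981), CRMP1 (r = 0.979) and GSTM3 (r = 0.978). TLX1 was most like FCER2 (r = 0.984), MMP25 (r = 0.977) and ZNF44 (r = 0.976). TLX3 was most like TRAM1L1 (r = 0.996), TNFSF8 (r = 0.989) and AQP1 (r = 0.984), and LMO3 was most like TTC23L (r = 0.9999), WLS (r = 0.999) and CST2 (r = 0.999). The values were lower for MYB, with NSDHL (r = 0.884), CLNS1A (r = 0.884) and ACTR1A (r = 0.884), and for TAL2, with RGPD5 (r = 0.736), CCDC62 (r = 0.707) and ZNF254 (r = 0.691). Ranking by Spearman's rho left 1 of the 3 genes shared for LYL1, TLX1, MYB and TAL2 and 0 of 3 for the other 4 factors. For a factor present in 1 or 2 of the 6 lines, a high r mostly restates presence in the same lines. Outside the untreated lines some likenesses did not hold. FCER2 averaged 226 CPM in NTC shRNA libraries labelled HPB-ALL, where TLX1 had 0 counts. In Jurkat NTC siRNA libraries TNFSF8 averaged 28.3 CPM and WLS 30.6 CPM, where TLX3 and LMO3 had 0 counts.

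QKI depletion in Jurkat was not followed by a called change in any of these factors. Of the 10, 5 passed the filter, TAL1, LMO1, LMO2, NKX2-1 and MYB, and 0 were called by edgeR's quasi-likelihood test at an adjusted p under 0.05. None of the 5 had an unadjusted p under 0.05, and DESeq2 and limma-voom also called 0. The background was low, with 1 of 21296 genes called (0.00470%), QKI itself, and 186 genes at an unadjusted p under 0.05. Replicate numbers paired the Jurkat libraries, and with the number as a block 9 genes were called (0.0423%) and again 0 of the 5 factors. The median log2 change of the 5 was 0.06, against 0.00 over all genes, and with the block it was -0.01, against -0.00.

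TAL1 had a log2 change of -0.00 (SE 0.21, interval of 2 SE each side -0.43 to 0.42), and with the block -0.01 (SE 0.06, interval -0.13 to 0.11). Its level differed more between replicate numbers than between treatments: replicate 1 had 322 CPM with QKI siRNA and 311 CPM with NTC siRNA, above all the others. The 4 within-pair log2 changes were 0.05, -0.08, 0.03 and -0.03. MYB had 758, 599, 747 and 747 CPM with QKI siRNA, against 748, 587, 677 and 720.0 CPM with NTC siRNA. Its log2 change was 0.06 (SE 0.13, interval -0.19 to 0.32), and with the block 0.06 (SE 0.06, interval -0.06 to 0.18). LMO1 had a log2 change of 0.28 (SE 0.21, interval -0.14 to 0.70) and was higher with QKI siRNA in 3 of 4 pairs, the within-pair changes being 0.15, 0.69, -0.13 and 0.41. NKX2-1 had a log2 change of -0.19 (SE 0.18, interval -0.56 to 0.17) and was lower in 4 of 4 pairs, with within-pair log2 changes of -0.03, -0.01, -0.25 and -0.45. LMO2 had 0.104, 0.0442, 0.368 and 0.585 CPM with QKI siRNA and 0.163, 0.0778, 0.362 and 0.404 CPM with NTC siRNA. Its interval of -1.38 to 1.66 was too wide to describe a direction, and its within-pair log2 changes were -0.65, -0.82, 0.02 and 0.53. The intervals given for LMO1, NKX2-1 and LMO2 are those without the block and leave out the pairing. With the block, 0 of the 5 factors had an unadjusted p under 0.05 by edgeR's quasi-likelihood test.

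**Figure D3:**
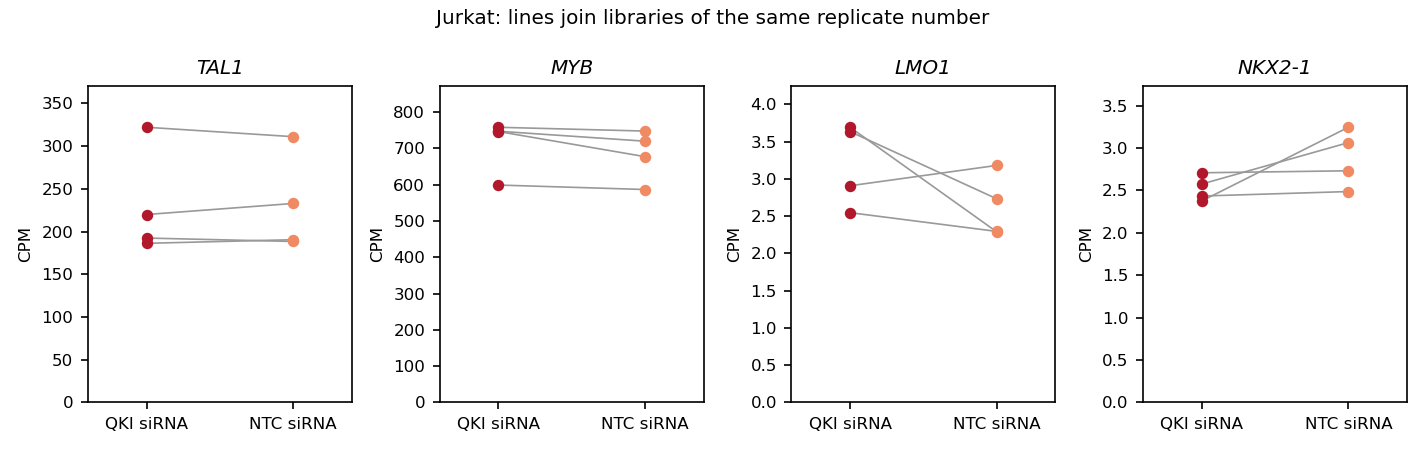
Level in CPM of TAL1, MYB, LMO1 and NKX2-1 in Jurkat QKI siRNA libraries (left) and NTC siRNA libraries (right), with a line joining libraries of the same replicate number. For TAL1 and MYB the lines run nearly level, and NKX2-1 is lower with QKI siRNA in 4 of 4 pairs.

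In the libraries labelled HPB-ALL, LYL1 rose and LMO1 fell with QKI shRNA. LYL1 had 172, 172, 185 and 181 CPM with QKI shRNA, against 144, 157, 154 and 149 CPM with NTC shRNA. The groups did not overlap, and the log2 change was 0.23 (SE 0.04, edgeR adjusted p = 0.00193). LMO1 had 10.7, 10.4, 10.5 and 11 CPM with QKI shRNA, against 12.7, 13, 12.9 and 14.1 CPM with NTC shRNA. These groups did not overlap either, and the log2 change was -0.30 (SE 0.05, edgeR adjusted p = 0.00107). The background was high: 4175 of 17974 genes were called (23.2%), 12.8% higher and 10.4% lower. The 2 called of 5 factors tested, 1 in each direction, stand beside that background, so the count itself does not set the factors apart. Against a fold of 1.2 neither change was called, and 284 genes were. The changes are those of the libraries as labelled, which lacked T-cell markers, and markers of myeloid cells were lower with QKI shRNA in sum, as given above. The part of those cells in the changes was not tested.

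The other 3 factors tested did not pass. LMO2 had 101, 96.4, 84.6 and 104 CPM with QKI shRNA, against 99.9, 104, 104 and 103 CPM with NTC shRNA, a log2 change of -0.09 (SE 0.06, adjusted p = 0.265) with overlapping groups. MYB had 764, 753, 788 and 773 CPM with QKI shRNA, against 736, 728, 714 and 736 CPM with NTC shRNA. Its groups did not overlap, yet its log2 change of 0.08 (SE 0.04, adjusted p = 0.147) was not called. TAL2 averaged 0.483 ± 0.0515 CPM with QKI shRNA and 0.416 ± 0.0737 CPM with NTC shRNA (SD, n = 4 each), a log2 change of 0.21 (SE 0.16, adjusted p = 0.38). TAL1 had 1 or 2 counts in each QKI shRNA library and 0 to 4 in each NTC shRNA library, and TLX1, TLX3 and NKX2-1 had 0 counts in all 8.

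**Figure D4:**
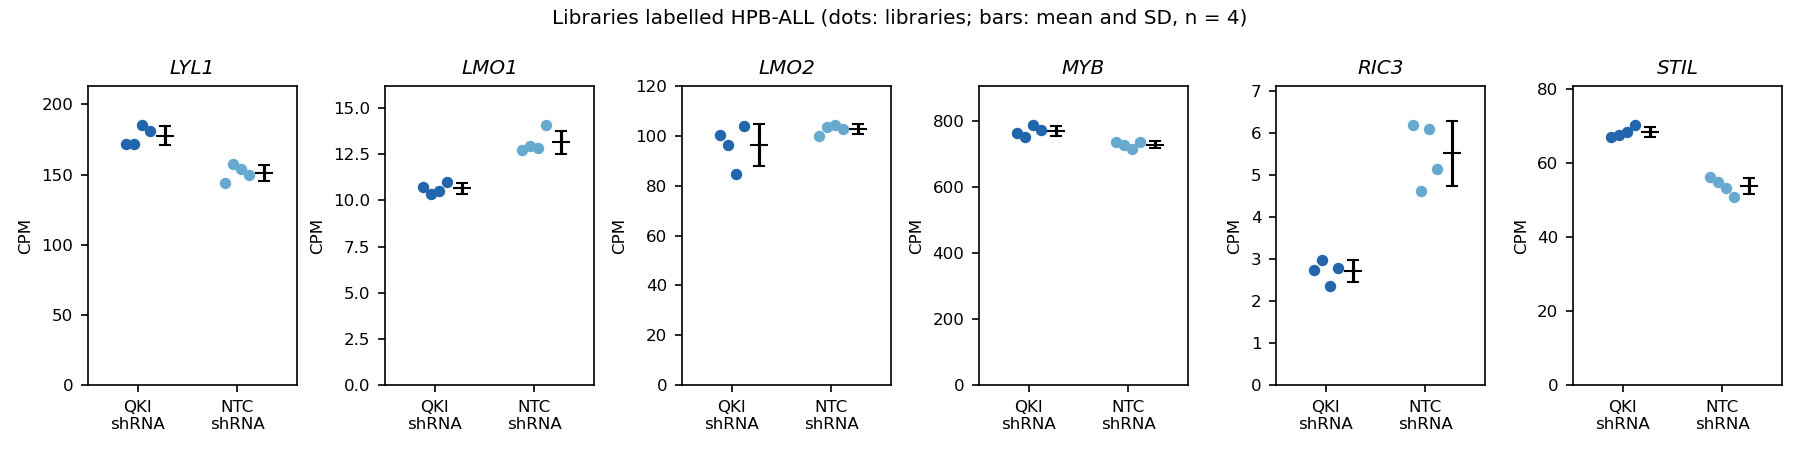
Level in CPM of LYL1, LMO1, LMO2 and MYB, and of RIC3 and STIL, genes beside LMO1 and TAL1, in libraries labelled HPB-ALL with QKI shRNA (left) and NTC shRNA (right). Dots are libraries and bars the mean and SD (n = 4). LYL1 and STIL are higher and LMO1 and RIC3 lower in each QKI shRNA library than in any NTC shRNA library.

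The genes beside LYL1 and LMO1 were examined in the same fit. RIC3, on the same chromosome as LMO1 and 55.2 kilobases from it, had 2.74, 2.97, 2.35 and 2.77 CPM with QKI shRNA, against 6.18, 4.60, 6.10 and 5.14 CPM with NTC shRNA. The groups did not overlap, and the log2 change was -1.02 (SE 0.10, adjusted p = 5.76e-05). STIL, a centriole gene beside TAL1, had 67.2, 67.6, 68.4 and 70.4 CPM with QKI shRNA, against 56.2, 54.9, 53.2 and 51.0 CPM with NTC shRNA. It rose by 0.35 (SE 0.04, adjusted p = 9.79e-05) on the log2 scale, while TAL1 itself had at most 4 counts. MGST1, which overlaps LMO3, fell, with a log2 change of -0.21 (SE 0.05, adjusted p = 0.0122), and so did AHI1, beside MYB, with -0.16 (SE 0.05, adjusted p = 0.0283). The AHI1 call was lost without any 1 of QKI shRNA libraries 2, 3 or 4 or NTC shRNA libraries 1 or 2 (adjusted p = 0.0562 to 0.0969). TRMT1, beside LYL1, had a log2 change of 0.13 (SE 0.04, adjusted p = 0.0432), a call lost without any 1 of QKI shRNA libraries 1, 3 or 4 or NTC shRNA libraries 1, 2 or 3 (adjusted p = 0.0535 to 0.117). NFIX on the other side of LYL1 had a log2 change of 0.00 (SE 0.04, adjusted p = 0.98). NPM1, beside TLX3, had -0.14 (SE 0.05, adjusted p = 0.0701). In Jurkat 0 of these neighbours was called, with RIC3 at 0.28 (SE 0.41) and STIL at 0.01 (SE 0.13).

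The 2 knockdowns were set against each other in 1 fit of 15730 genes that passed the filter in both, in which 4 genes differed (0.0254%). Of the 3 factors tested, LMO1, LMO2 and MYB, 0 were called. The log2 change of LMO1 in the libraries labelled HPB-ALL minus that in Jurkat was -0.61 (SE 0.18, adjusted p = 0.394), and with replicate blocks -0.60 (SE 0.15, adjusted p = 0.0525). For MYB the difference was 0.00 (SE 0.12, adjusted p = 0.999), and for LMO2 -0.32 (SE 0.58, adjusted p = 0.999). TAL1, NKX2-1 and LYL1 could not be compared, since each was present in 1 of the 2 cell types.

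**Figure D5:**
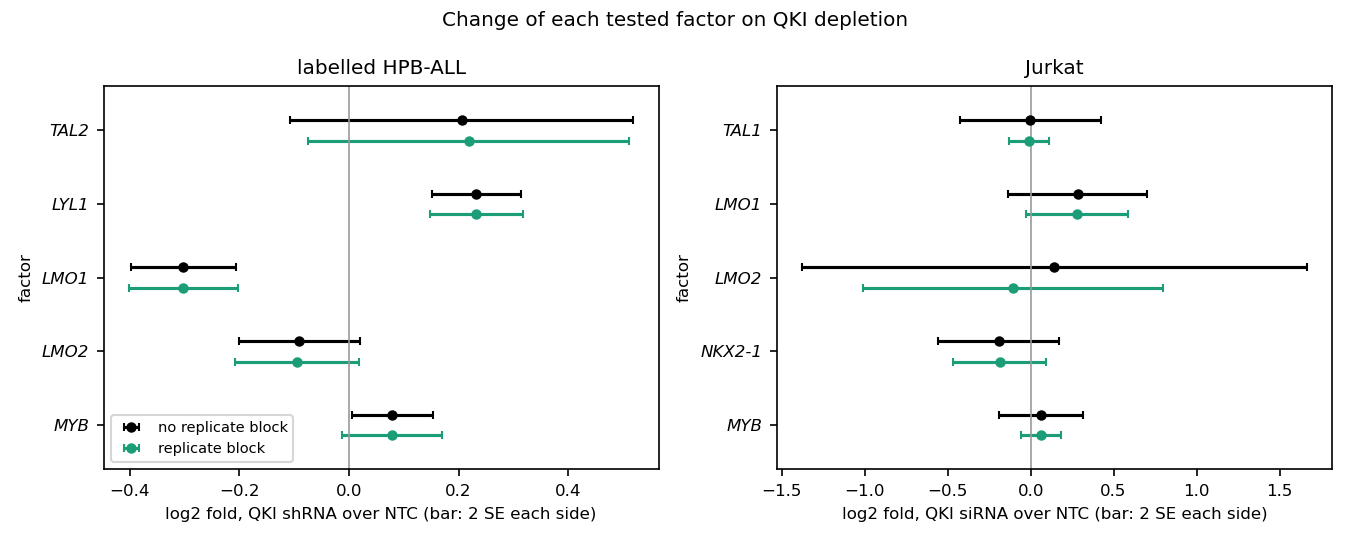
The log2 fold of each factor tested, QKI shRNA over NTC shRNA in libraries labelled HPB-ALL (left) and QKI siRNA over NTC siRNA in Jurkat (right), with bars of 2 SE each side, without and with the replicate number as a block, on x scales that differ. LYL1 lies above 0 and LMO1 below 0 on the left, and in Jurkat the bars without the block cross 0 for all 5 factors.

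Changes of listed genes below are on the log2 scale, QKI shRNA over NTC shRNA, in the libraries labelled HPB-ALL. Each count of a list stands beside 12.8% of all genes called higher and 10.4% called lower. Some genes, RUNX1, MEF2C, KIT and CD4 among them, are on more than 1 list, so the list counts are not separate. Among the partners, 6 of 12 tested genes of the TAL1 complex list rose and 0 fell, beside 12.8% of all genes that rose, with a median log2 change of 0.11 against -0.01 over all genes. RUNX1 rose by 0.33 (adjusted p = 9.93e-05), CBFA2T3, a corepressor, by 0.41 (adjusted p = 0.000103), and the E protein genes TCF12 by 0.20 (adjusted p = 0.00681) and TCF4 by 0.14 (adjusted p = 0.0172). RUNX1 averaged 247 CPM with QKI shRNA and 196 CPM with NTC shRNA. Of the 3 ID genes tested, ID1 fell (-0.23, adjusted p = 0.0494) and 2 were not called. The ID1 call was lost without any 1 of QKI shRNA libraries 1, 2, 3 or 4 or NTC shRNA libraries 1 or 2 (adjusted p = 0.0742 to 0.136).

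Of 10 genes described as TAL1-activated, 4 rose and 0 fell, beside 12.8% of all genes that rose: RUNX1, CDK6 (0.20), TRIB2 (0.17) and GATA3 (0.32). TAL1 itself had at most 4 counts in these libraries. The GATA3 call was lost without any 1 of QKI shRNA libraries 1, 3 or 4 or NTC shRNA libraries 1, 2 or 3 (adjusted p = 0.0526 to 0.106). The median log2 change of the 10 was 0.10. Among the E protein targets tested, CD4, a coreceptor gene, fell (-0.19). Of 7 progenitor genes tested, MEF2C rose by 0.16 and KIT, a receptor tyrosine kinase, fell (-0.35), with a median over the 7 of 0.00. The MEF2C call was lost without any 1 of QKI shRNA libraries 1, 3 or 4 or NTC shRNA libraries 1, 2 or 3 (adjusted p = 0.0588 to 0.0901). Of 13 other driver genes tested, HLX rose by 0.33, MEF2C rose, and HOXA10 fell (-0.51, adjusted p = 0.00074).

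Of 6 MYB relatives and coactivators, 4 rose and 0 fell, beside 12.8% of all genes that rose. The 4 were MYBL1, a paralog of MYB, by 0.40 (adjusted p = 0.000165), and CREBBP, MEN1 and EP300 by 0.20, 0.14 and 0.14. Of 7 MYB target genes tested, ADA rose by 0.19, while BCL2, a survival gene, fell (-0.31, adjusted p = 0.000328), and CD4 and KIT fell. The median log2 change was 0.15 over the 6 and 0.02 over the 7. The EP300 call was lost without any 1 of QKI shRNA libraries 3 or 4 or NTC shRNA libraries 1, 2 or 4 (adjusted p = 0.0666 to 0.0887), and the MEN1 call without any 1 of QKI shRNA library 3 or NTC shRNA library 1 (adjusted p = 0.0533 to 0.0623). Myeloid markers moved as well: 6 of 11 tested fell and 0 rose, beside 10.4% of all genes that fell. LYZ, a lysozyme, was at -0.71 and AZU1, a granule protein, at -0.47. Of the B-cell markers 2 of 5 tested fell, CD22 (-0.53) and CD79A (-0.33). T-cell markers had 0 of 4 tested called, and of 3 erythroid and megakaryocyte markers EPOR rose by 0.18, a call lost without any 1 of QKI shRNA library 4 or NTC shRNA libraries 1 or 3 (adjusted p = 0.0507 to 0.0587). The CD79A call among the B-cell markers was lost without any 1 of QKI shRNA library 4 or NTC shRNA library 4 (adjusted p = 0.0628 to 0.0636). The part of these cell type markers in the changes above was not tested. In Jurkat 0 genes of the 8 lists were called, also with the block, and the median log2 changes of the lists ran from -0.09 to 0.08 without the block. With it they ran from -0.07 to 0.28, the highest being that of the 3 ID genes tested. Of the Jurkat markers CD3G was called with the block alone, with a log2 change of -0.53 (adjusted p = 0.00761).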

How the data were processed

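RNA-seq counts per gene were measured in 40 libraries of human cell lines and deposited by the authors as 3 tables of raw counts. Reads were trimmed with Trimmomatic 0.39 and aligned with STAR 2.7.11b to GRCh38, per the submitters' processing notes, while the sources used here give neither the counter nor the gene annotation. Rows that name no gene held 13.0% to 15.1% of the deposited counts in the table labelled HPB-ALL and were left out of totals and tests. Columns of other samples numbered 0.

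Groups came from the labels. In the table's header 2 LOUCY columns carry the same number, 1, so neither was tied to 1 sample, and the Jurkat control columns are headed shNTC. CPM used TMM library sizes within a table, and a level of 1 CPM was called present. Each comparison used edgeR 4.0.16 (R 4.3.3) with filterByExpr, a quasi-likelihood test and Benjamini-Hochberg adjustment at 0.05 over all genes tested, fitted within a table. The difference of the knockdowns used both knockdown tables in 1 fit. Alternatives were DESeq2 1.42.0 or its size factors, limma-voom (limma 3.58.1), no filter beyond 1 count, a replicate block, a test against a fold of 1.2, and leaving out each library. The fits were also run on simulated counts, drawn with the same spread for every gene and without pairing. Of the lines only ALL-SIL and DND-41 were simulated, and the outcome is not given here.

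Samples of the same number correlated at 0.574 to 0.741 in their deviations from group means in Jurkat, with each of the 8 libraries closest to the one that shares its number, so the numbers were taken as pairs on the data alone. No 2 libraries matched within sampling noise. Gene positions and exon lengths are those of GENCODE 29 (GRCh38), and the sequences before the RefSeq starts are from RefSeq GRCh38.p14. Intervals of 2 SE come from the fits and include the spread between libraries, while the limit of 3 counts covers counting error only.

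The factors and gene lists were chosen with earlier results of these data known. Genes named were QKI, the factors, the nearest protein-coding gene on each side, in each list and knockdown up to 4 called genes with the smallest p, for each factor the 3 genes with the highest Pearson r (log2 CPM, prior count 2), and per list up to 4 genes with the largest F over the lines. Overlapping noncoding genes, cell type markers and some other list members were chosen for naming after their values were seen. A few members of the gene lists are not reported here.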

Additional observations from a re-analysis of the deposited data

Results flagged for a closer look

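In 4 cases 1 library stood apart from the other 3 of its group, by the gap to its nearest neighbour over the range of the group against Dixon's critical value. This was examined for the factors in 54 groups, and chance alone gives such a case in about 1 of 20 groups. MYB had 309.8 CPM in TALL-1 library 4, below 552 to 568 CPM in the other 3. It also had 599 CPM in Jurkat QKI siRNA library 2, below 747 to 758 CPM in the other 3, and the NTC siRNA library of the same number was the lowest of its own group at 587 CPM. TLX1 had 346 CPM in ALL-SIL library 4, below 402 to 412 CPM in the other 3. LMO1 had 0.561 CPM in HPB-ALL library 2, above 0.316 to 0.339 CPM in the other 3.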

How the results depend on the processing

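For summary counts, 126 recomputed values stayed within 1.5 times the main count, and 0 called results reversed. Uncalled values did turn, as LMO2 in Jurkat (log2 0.14, from -0.54 to 0.48 over the alternatives). The number of genes called in the Jurkat knockdown was 1, against 2 with DESeq2 and 9 with the replicate block. In the libraries labelled HPB-ALL it was 4175, against 284 tested against a fold of 1.2, where 0 in place of 2 factors were called. The LYL1 and LMO1 calls held under the other 13 alternatives, with log2 changes of 0.21 to 0.25 for LYL1 and -0.32 to -0.27 for LMO1. The difference between knockdowns had 4 genes called, 481 with replicate blocks and 3 to 10 when 1 library was left out (10 without Jurkat QKI siRNA library 1, 8 without library 2). For single genes 1581 recomputed values stayed as they were, called or not called, and these include results with no call to lose. Another 84 lost a call and 2 gained one. The 8 comparisons of most similar genes by Spearman's rho shared at most 1 gene of 3 each. In the libraries labelled HPB-ALL numbers did not pair libraries. Same-number correlations were -0.211 to 0.042, against -0.152 to 0.227 for other numbers, and 1 of 8 libraries correlated best with its own number. In the lines the same-number correlations were -0.195 to 0.476, against -0.497 to 0.367 for other pairs of libraries. These ranges overlap but the first lies higher, and whether a number marks something shared between the lines was not tested. With the block 3063 genes were called in the libraries labelled HPB-ALL, and the same 2 factors. On the TAL1 complex list 3 in place of 6 genes rose (the TCF4 call was lost, edgeR adjusted p = 0.0521). The TAL1-activated genes had 3 in place of 4 higher, without GATA3. MYB relatives and coactivators had 3 in place of 4 higher, without MEN1. Likewise 0 in place of 1 progenitor gene and 1 in place of 2 other drivers rose. Calls of lower level went to 0 in place of 1 ID gene, 5 in place of 6 myeloid markers and 1 in place of 2 B-cell markers. In the lines the block, which drops the 2 LOUCY libraries that share a number, gave adjusted p = 0.0797 for MYB in KARPAS-45 over ALL-SIL, 0.144 for TLX3 in HPB-ALL over DND-41 and 0.153 for LMO1 in LOUCY over HPB-ALL. The cause of these losses was not tested. Depth limits statements on LMO3 outside untreated HPB-ALL and on TAL1 outside Jurkat, at 0 or 1 and at 0 to 7 counts per library.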
